A study of Mus musculus with 9 samples.

Results

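Imprinted genes, which are read mainly from the copy inherited from 1 parent, were followed in the mouse hippocampus, a brain region of memory. The members were 36 genes known to be imprinted in the mouse and lying outside the Dlk1-Dio3 locus, taken by gene symbol from the 54532 genes listed in each of 2 deposited expression tables, and all 36 were listed. RNA had been sequenced from 9 samples in 3 groups of 3. The control group (Con) ate a standard diet, the HMD group was fed 8 weeks on a diet rich in methionine, and the Bet+HMD group was fed likewise and then drank water with 2.5% (w/v) betaine for 2 weeks. Every sample came from a wild-type mouse bought at 6 to 8 weeks of age. The labels name the strain C57BL/6 and male mice, while the study's methods name female mice, and the strain labels of Bet+HMD replicates 2 and 3 read C57BL/7 and C57BL/8. Whether the high-methionine diet went on during the betaine weeks is not clear from the labels, and the study's methods do not describe the Bet+HMD group.

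At an imprinted cluster, DNA methylation set in the egg or the sperm marks an imprinting control region, and that mark decides which parental copy of the neighbouring genes is active. Many of these genes act in growth, in the placenta or in neurons, and several have roles in feeding, sleep and maternal care. Methionine is the source of the methyl groups used for DNA methylation, homocysteine is what remains after they are given away, and betaine supplies a methyl group that turns homocysteine back into methionine. The measurements here are totals of both parental copies, so the copy that gave the reads was not measured.

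The 6 Con and HMD samples stand in an earlier table, and the same 6 samples stand again in a later one with the Bet+HMD samples. The effect of the diet was therefore read in the earlier table and that of the betaine weeks, relative to either other group, in the later one. Expression is given as FPKM, fragments scaled to the length of the gene model and the size of the library, from libraries of 16031464 to 18566712 reads assigned to genes. In the later one, 25315 to 25663 genes had a read in a Bet+HMD library and 20816 to 23272 genes in a library of the other groups, so the Bet+HMD libraries stood apart as libraries. They are in the later table only, and any difference in how they were made cannot be told apart from betaine. Markers of neurons summed to between 776 and 995 FPKM in every library, and the 12 hippocampus markers summed to 350 to 383 FPKM in Con, 305 to 373 FPKM in HMD and 278 to 290 FPKM in Bet+HMD. In such bulk samples, fewer cells of a type and less RNA per cell cannot be told apart. The FPKM of all genes summed to 249135 to 258514 in a Bet+HMD library and 288439 to 307899 in the others of the later table. Marker sums were not adjusted for this difference in scale.

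Markers of neighbouring tissue differed between libraries as well, and their part in the results was not tested. The 12 hypothalamus markers summed to 7.50 to 8.86 FPKM in HMD, against 2.70 to 5.32 FPKM in Con and 2.22 to 3.55 FPKM in Bet+HMD, where 4 of the 12 had no more than 3 reads in any library. The 10 thalamus markers summed to 38.3 to 109 FPKM in HMD, 26.6 to 32.6 FPKM in Con and 33.1 to 35.2 FPKM in Bet+HMD. The 10 choroid plexus markers spread widely, from 777 to 3228 FPKM in Con, 877 to 2598 FPKM in HMD and 949 to 1225 FPKM in Bet+HMD. Markers of microglia summed to 72.9 to 73.8 FPKM in Bet+HMD, below the 88.0 to 99.0 FPKM of HMD and the 92.9 to 107 FPKM of Con. The 5 blood cell markers summed to 149 to 233 FPKM in HMD, 99.8 to 148 FPKM in Con and 72.2 to 122 FPKM in Bet+HMD. The sums of the 9 endothelium markers were 54.0 to 57.7 FPKM in Bet+HMD, 63.9 to 70.7 FPKM in HMD and 67.8 to 75.8 FPKM in Con. The 10 markers of leptomeninges and fibroblasts summed to 26.2 to 29.2 FPKM in Bet+HMD, below the 30.8 to 31.6 FPKM of Con and within the 25.3 to 39.2 FPKM of HMD. Astrocyte markers summed to 540 to 568 FPKM in Bet+HMD, 496 to 633 FPKM in HMD and 458 to 615 FPKM in Con. Such sums can hide single genes. In Bet+HMD against HMD, 0 of the 6 astrocyte markers rose and 2 fell, Gfap and Gja1 (limma, adjusted P under 0.05). Of the 6 neuron markers, 2 rose (Rbfox3 and Map2) and 2 fell (Tubb3 and Syn1), where 22.8% of all genes tested were higher and 25.5% lower. Oligodendrocyte markers summed to 732 to 739 FPKM in Bet+HMD, below the 752 to 1012 FPKM of HMD and within the 671 to 1143 FPKM of Con.

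The members fall into 16 clusters on 9 chromosomes, and 17 of them lie on chromosome 7. Of the 36, 22 are classed as expressed from the paternal copy, 12 from the maternal copy, and 2 (Grb10 and Gnas) from either copy depending on promoter or tissue. Imprinting of other members can also differ between tissues, so these classes need not hold in the hippocampus. Upstream bases are shown for 4 starts at clusters described in detail: in Bet+HMD relative to HMD, Peg3 rose while Usp29, read in the opposite direction from the same stretch, did not pass the test, Snrpn and Nnat fell, and Kcnq1ot1, below the filter of the main test, stood several times higher. None are shown for Ndn, which fell furthest, because all 250 bases before RefSeq's start lie within its annotated exon. The Snrpn stretch precedes the start shared with Snurf, which lies inside the Snrpn gene model, and RefSeq gives Snrpn other starts as well. The bases are RefSeq's for GRCm38.p6, on the strand of the first gene named, from the 250 bases before its start and outside annotated exons, and capitals mark each CpG, the site of DNA methylation. They lie at chr7:6730432-6730577, chr7:60005200-60005449, chr7:143296550-143296797 and chr2:157560008-157560077, in that order.
Peg3-Usp29: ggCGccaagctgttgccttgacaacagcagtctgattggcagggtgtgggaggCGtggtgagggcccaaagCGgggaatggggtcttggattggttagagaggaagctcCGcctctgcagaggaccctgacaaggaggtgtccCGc
Snrpn-Snurf: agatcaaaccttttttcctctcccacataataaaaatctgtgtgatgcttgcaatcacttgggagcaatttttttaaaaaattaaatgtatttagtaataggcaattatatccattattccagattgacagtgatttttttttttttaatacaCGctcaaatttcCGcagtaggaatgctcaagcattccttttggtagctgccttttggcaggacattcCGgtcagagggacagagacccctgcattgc
Kcnq1ot1: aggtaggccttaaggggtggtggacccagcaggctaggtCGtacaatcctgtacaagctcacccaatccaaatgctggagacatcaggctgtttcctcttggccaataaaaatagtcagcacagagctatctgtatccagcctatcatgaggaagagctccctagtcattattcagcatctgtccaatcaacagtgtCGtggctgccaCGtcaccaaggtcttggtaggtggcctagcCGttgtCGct
Nnat: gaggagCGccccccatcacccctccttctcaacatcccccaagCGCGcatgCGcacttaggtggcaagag

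The stretch between Peg3 and Usp29 held 5 CpGs in 146 bases, the Snrpn stretch 3 in 250, the Kcnq1ot1 stretch 5 in 248 and the Nnat stretch 4 in 70. With Impact left out, 43 promoters of 29 members were taken from RefSeq's table. Starts that are shared or a few bases apart, as for Snrpn with Snurf and for Mest, were counted separately. Within the 250 bases before the start, the member promoters had a median of 10 CpGs, against 6 over all 32851 promoters of the table. The letters CCAAT, the box bound by the factor NF-Y, occurred on either strand 3 times before Kcnq1ot1 and 2 times between Peg3 and Usp29. Of all promoters, 33.8% held them at least once, 10.1% at least 2 times and 2.79% at least 3 times. Of the member promoters the shares were 27.9%, 9.3% and 2.33%. The Snrpn and Nnat stretches shown held 0, but the bases before another start of Snrpn, which fell, held them 2 times. The letters TGCCGC, the core of the site that ZFP57 binds when methylated, were in 6 of the 43 member promoters, of the genes Plagl1, Mest, Copg2, Nap1l5 and Zim1, and in 8.68% of all promoters. The 4 stretches shown hold none, which says only that these letters are not in these windows.

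Levels of the members in Con spanned the full range from undetected to among the strong transcripts of the tissue. In the later table, mean FPKM in Con was highest for Snrpn, which encodes the neuronal form of a spliceosomal protein, at 177 ± 4.97 (SD, n = 3). Nap1l5, a nucleosome assembly protein gene within an intron of Herc3, followed at 161 ± 13.1, and Nnat, which encodes the small membrane protein neuronatin, at 149 ± 24.9. Nap1l5 overlapped each of the others, so the order of these 3 was not settled by their spread. Impact, a regulator of the amino acid sensing kinase GCN2, stood at 79.8 ± 14.9, Ndn at 60.3 ± 9.22, the non-coding Peg13 at 52.3 ± 3.06 and Rasgrf1, a neuronal activator of Ras, at 49.3 ± 8.26. Impact overlapped Ndn, and Ndn, Peg13 and Rasgrf1 overlapped each other in range. Blcap, Copg2, Peg3, Inpp5f and Zrsr1 lay between 35.5 and 11.2 FPKM, and Trappc9, Mest, Ube3a, Gnas, Plagl1, Peg10, Grb10, Igf2r and Cdkn1c between 8.63 and 4.02 FPKM. Sgce (2.34), Usp29 (1.5) and Commd1 (1.21) were the lowest of the 24 members whose mean was at least 1 FPKM and which were tested in each comparison.

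The other 12 members fell under 1 FPKM and were left out of the tests. Snurf, whose exon bases are 100% shared with Snrpn and a further gene model, was listed at 0 in every library, and since how shared reads were assigned is not stated, this sets no limit on its level. H19, the growth-restraining non-coding RNA beside Igf2, had no more than 3 reads in any library, and Phlda2 had 3 reads in Con replicate 2 and 0 in all others of the later table, where 3 reads, the most a count of 0 allows, are at most 1.87e-05% of a library. Peg12 had 1 to 9 reads per library. Slc22a18, Asb4 and Mkrn3 had 0 to 36 reads. Zim1, Magel2, Igf2, Kcnq1ot1 and Airn are described with their clusters. Such a floor covers counting error only, since the reads carry no molecular identifiers and are not independent molecules.

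To ask what the high-methionine diet did to imprinted genes, HMD was compared with Con. No member passed the threshold (adjusted P under 0.05, limma, over 12989 genes), and 0 of the 24 tested had an unadjusted P under 0.05. Over all genes tested the shares were 0% and 4.56%. The median log2 fold change of the members was 0.04, against -0.0038 over all genes, with 15 positive and 9 negative values and standard errors of 0.096 to 0.30. Nnat had the most negative value (log2 fold change -0.36, SE 0.18, adjusted P = 0.98), at 161, 119 and 159.8 FPKM in Con and 138, 98.01 and 106 in HMD. The lowest Con library lay below the highest HMD library, so the groups overlapped. Grb10, an adaptor that dampens insulin receptor signalling, had the most positive value (0.30, SE 0.15, adjusted P = 0.98), with 4.40, 4.89 and 3.46 FPKM in Con and 6.40, 4.86 and 5.12 in HMD. Trappc9, a subunit of a vesicle trafficking complex, was the member of the 24 whose groups did not overlap, at 9.26, 8.78 and 7.38 FPKM in Con and 10.5, 9.55 and 10.3 in HMD (log2 fold change 0.24, SE 0.11, adjusted P = 0.98), where 9.37% of all genes tested did not overlap. Among those left out of the tests, Magel2 had 31 to 45 reads in Con and 42 to 73 in HMD, and Airn 13 to 19 and 2 to 12. At this number of samples a difference of the size of these standard errors was not detectable.

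Bet+HMD was compared with HMD to see what followed the betaine weeks. Of the 24 members tested, 1 rose and 11 fell. Peg3 was the member that rose, and Ndn fell furthest, followed by Copg2, Snrpn, Blcap, Trappc9, Nnat, Peg10, Cdkn1c, Nap1l5, Impact and Inpp5f. Of all 13672 genes tested, 22.8% were higher and 25.5% lower by the same threshold, so the share of members that rose (4.17%) was below that of all genes and the share that fell (45.8%) above it. Falls made up a larger share among genes of higher level. With a filter of 5 FPKM, 1365 of 7549 genes were higher and 2801 lower. The members were not compared with genes of like level. The median log2 fold change of the members was -0.21, against -0.03 over all genes. With the further threshold of a log2 fold change of at least 1 in size, Ndn passed alone, 1 of 24, where 8.93% of all genes did. The 2 groups did not overlap in 14 of the 24 members (58.3%), and in 60.1% of all genes. Peg3, Ndn, Snrpn, Blcap, Copg2, Peg10 and Trappc9 (7 of the 12) passed against HMD in every alternative in which they were tested. Without HMD replicate 1, or without Bet+HMD replicate 1, 2 or 3, 7 members fell instead of 11.

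**Figure D1:**
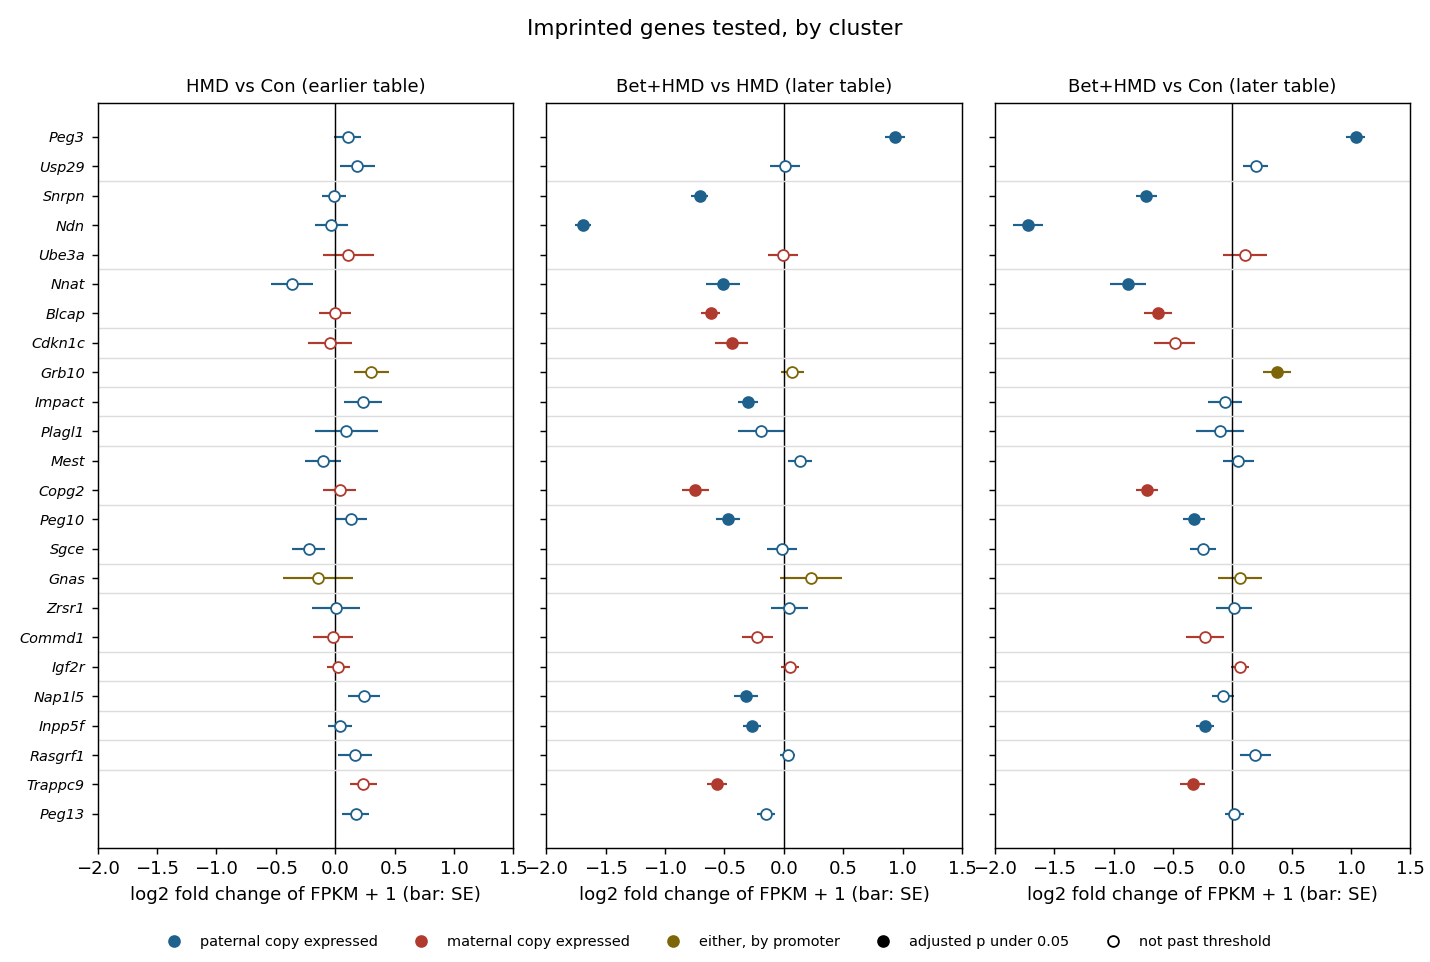
Log2 fold change of FPKM + 1 (horizontal axis, bars are standard errors) of the 24 members tested in the 3 comparisons, grouped by cluster with grey lines between clusters. Blue, red and ochre mark the parental copy classed as expressed, and filled points have an adjusted P under 0.05. No point is filled for HMD vs Con, while in the panels with betaine Peg3 and, against Con, Grb10 are the filled points right of 0 and Ndn lies farthest left.

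Bet+HMD against Con shares its Bet+HMD libraries with the comparison above and is given beside it. There, 2 of 24 members rose (Peg3 and Grb10) and 8 fell, where 19.4% of 13643 genes were higher and 20.4% lower. The median log2 fold change of the members was -0.09, against -0.04 over all genes. Peg3 and Ndn also passed the threshold of 1 on the log2 scale, as 8.74% of all genes did. The groups did not overlap in 12 of 24 members (50%), against 55.1% of all genes. Without any single Bet+HMD library, 6 members passed instead of 10. Rescaling to TPM, which sums to the same total in every library, put the median over all genes tested at 0.16 (log2) against HMD and 0.17 against Con, and moved the share of higher genes among those called from 47.2% to 69.5% and from 48.8% to 73.5%. Under TPM 3 of 24 members rose and 6 fell against HMD, where 4496 of 13672 genes were higher and 1974 lower. Against Con 4 rose and 5 fell, where 3980 of 13643 genes were higher and 1432 lower.

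The Peg3 cluster lies on chromosome 7. Peg3, at chr7:6703892-6730431 (minus strand), encodes a large zinc finger protein of growth and maternal care and is expressed from the paternal copy. It was at 21.8, 22.2 and 20.1 FPKM in Con, 25.2, 23.1 and 20.9 in HMD and 43.6, 44.4 and 46.7 in Bet+HMD. All 3 Bet+HMD libraries stood above all 6 others. Peg3 rose against HMD (log2 fold change 0.94, SE 0.084, adjusted P = 0.000219) to 1.95 times the HMD mean, and against Con (log2 fold change 1.04, SE 0.080, adjusted P = 0.000328). It overlaps no other gene model. Usp29, a ubiquitin protease gene that starts 147 bases from Peg3 on the other strand and is also paternally expressed, held 1.54, 1.66 and 1.30 FPKM in Con, 2.26, 1.502 and 1.80 in HMD and 1.81, 1.81 and 1.95 in Bet+HMD. Its Bet+HMD libraries lay within the range of HMD and above Con (log2 fold change 0.011, SE 0.12, adjusted P = 0.95 and log2 fold change 0.20, SE 0.10, adjusted P = 0.18). Zim1, a maternally expressed zinc finger gene downstream of Peg3, had 106, 91 and 106 reads in Con, 114, 110 and 81 in HMD and 141, 154 and 127 in Bet+HMD, and was below the filter of the main test. With genes kept at a mean of 10 reads it did not pass against HMD (log2 fold change 0.18, SE 0.10, adjusted P = 0.17) or Con (log2 fold change 0.21, SE 0.079, adjusted P = 0.0773).

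The Snrpn cluster on chromosome 7 is the mouse counterpart of the Prader-Willi and Angelman region. Its paternally expressed genes include Ndn, Magel2 and Mkrn3, each of a single exon, and Snrpn with Snurf, and Ube3a is expressed from the maternal copy in neurons. Ndn, at chr7:62346569-62350262 (plus strand), encodes necdin, a MAGE family protein of neuronal differentiation. It was at 68.2, 62.6 and 50.2 FPKM in Con, 57.0, 60.5 and 58.5 in HMD and 17.8, 18.1 and 16.6 in Bet+HMD. Every Bet+HMD library lay below every other one by more than the spread within any group. Ndn fell (log2 fold change -1.69, SE 0.067, adjusted P = 1.57e-05) to 0.298 times the HMD mean, and this value was lower than that of all but 0.622% of the genes tested. Against Con it fell as well (log2 fold change -1.72, SE 0.12, adjusted P = 0.000275). Snrpn, at chr7:59982495-60140219 (minus strand), was within a narrow range in Con and HMD. It was at 175, 182 and 173 FPKM in Con, 175, 174 and 175 in HMD and 109.7, 112 and 98.5 in Bet+HMD. The 3 Bet+HMD libraries lay below all others, and Snrpn fell (log2 fold change -0.71, SE 0.072, adjusted P = 0.000350, and log2 fold change -0.72, SE 0.087, adjusted P = 0.00125 against Con). Under quantile normalization its log2 fold change was -0.32 against HMD, still past the threshold, and -0.27 against Con, where the call was lost (adjusted P = 0.0506). Of its exon bases, 34.1% are shared with other gene models, among them Snurf, so that its level is uncertain in part.

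Other genes of this cluster gave other values, and differences between neighbouring genes were not tested. Ube3a, the ubiquitin ligase of Angelman syndrome, held 7.82, 10.6 and 5.75 FPKM in Con, 8.16, 10.6 and 7.22 in HMD and 8.29, 8.37 and 8.92 in Bet+HMD. Its groups overlapped throughout (log2 fold change -0.0038, SE 0.13, adjusted P = 0.98), and 27.3% of its exon bases are shared with other models, the antisense Snhg14 among them. Snhg14, the long non-coding RNA that starts near Snrpn and silences the paternal copy of Ube3a, is no member but is on the list of other imprinted genes, and held 3.04, 4.02 and 2.42 FPKM in Con, 3.07, 4.65 and 2.74 in HMD and 5.43, 5.97 and 6.91 in Bet+HMD. It rose (log2 fold change 0.68, SE 0.16, adjusted P = 0.0124). Magel2, the MAGE family neighbour that starts 30441 bases from Ndn, had 45, 30 and 38 reads in Con, 52, 42 and 72 in HMD and 74, 59 and 72 in Bet+HMD, so that Bet+HMD lay above Con but overlapped HMD. With genes kept at a mean of 10 reads it passed against Con (log2 fold change 0.32, SE 0.083, adjusted P = 0.0198) and not against HMD (log2 fold change 0.10, SE 0.10, adjusted P = 0.44), and voom on the reads gave the same calls (0.81, SE 0.25, adjusted P = 0.0293 against Con, and 0.23, SE 0.26, adjusted P = 0.50 against HMD). Mkrn3, which delays the onset of puberty, had 15, 36 and 27 reads in Con, 23, 20 and 12 in HMD and 8, 11 and 23 in Bet+HMD, with overlap in each pair of groups.

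**Figure D2:**
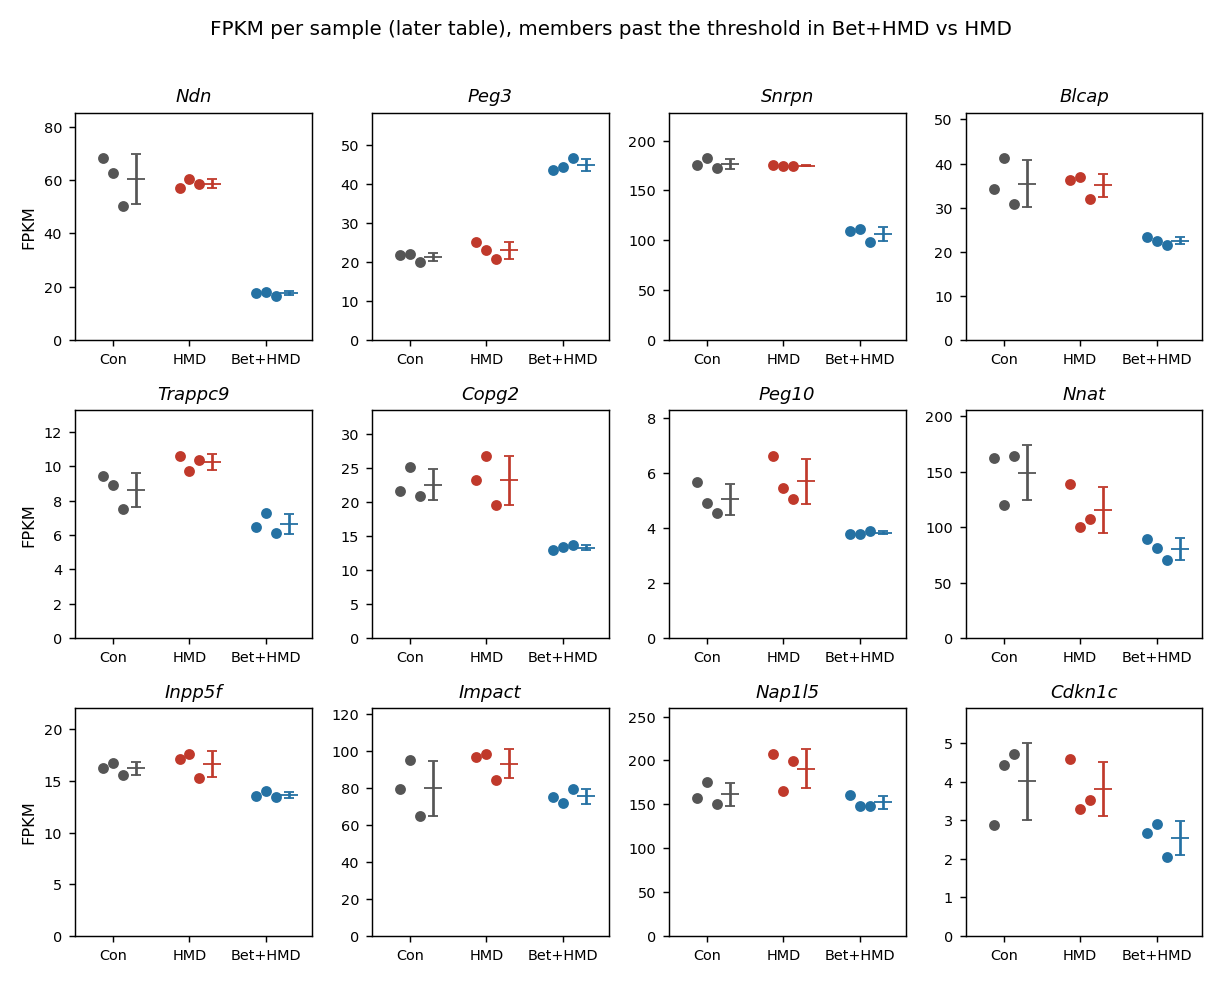
FPKM of each sample in the later table (points, vertical axes starting at 0) for the 12 members with an adjusted P under 0.05 in Bet+HMD vs HMD, ordered by P, with the mean and SD of each group of 3 beside its points. Peg3 is the panel in which Bet+HMD lies highest, and in the panels of Ndn, Snrpn, Blcap, Trappc9, Copg2, Peg10, Nnat and Inpp5f every Bet+HMD sample lies below all others.

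Nnat and Blcap share a place on chromosome 2, where the paternally expressed Nnat lies in an intron of the maternally expressed Blcap. Both fell. Nnat was at 162, 120.1 and 164 FPKM in Con, 139, 99.7 and 108 in HMD and 89.1, 81.2 and 70.2 in Bet+HMD. All Bet+HMD libraries lay below the others, and the HMD libraries overlapped Con (log2 fold change -0.51, SE 0.14, adjusted P = 0.0213 against HMD and log2 fold change -0.88, SE 0.15, adjusted P = 0.00500 against Con). Blcap, a small membrane protein gene, was at 34.2, 41.2 and 30.9 FPKM in Con, 36.2, 37.0 and 32.0 in HMD and 23.3, 22.6 and 21.7 in Bet+HMD. Its groups were apart in the same way (log2 fold change -0.61, SE 0.079, adjusted P = 0.000866 and log2 fold change -0.62, SE 0.12, adjusted P = 0.00643), and none of its exon bases are shared. The call of Nnat against HMD was lost in 5 of 17 alternatives, namely without Bet+HMD replicate 2 or 3 (adjusted P up to 0.074), with no filter, under TPM (log2 fold change -0.32) and under quantile normalization (-0.12). Against Con the call of Nnat held in all 17, at -0.44 under quantile normalization, where Blcap was at -0.40 against HMD and -0.41 against Con.

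In the cluster of Igf2, H19, Kcnq1ot1 and Cdkn1c on chromosome 7, the non-coding Kcnq1ot1 showed the largest ratio between groups of all members with reads. Kcnq1ot1, at chr7:143203458-143296549 (minus strand), is an unspliced nuclear RNA of the paternal copy that silences its neighbours, Cdkn1c among them, on that copy. Its gene model spans 93092 bases in a single exon, so that many reads make a low FPKM. It had 265, 130 and 130 reads in Con, 175, 247 and 171 in HMD and 1371, 1396 and 1553 in Bet+HMD, or 0.108, 0.130 and 0.885 FPKM on average. All Bet+HMD libraries lay far above the other 6. The mean FPKM was 6.80 times that of HMD and 8.16 times that of Con. Below the filter of 1 FPKM, it was not in the main test. With genes kept at a mean of 10 reads instead it passed (log2 fold change 0.74, SE 0.076, adjusted P = 0.000248), and fitted on the reads themselves by limma voom, an alternative chosen after seeing the data, the log2 fold change was 2.80, SE 0.16, adjusted P = 1.70e-07. Of its exon bases, 1.2% are shared with exons of other models. Its model overlaps 5 genes on the other strand, Kcnq1 among them, and the strand setting of the counting is not stated. Whether reads from introns of those genes were counted as Kcnq1ot1 was not tested.

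Cdkn1c, which encodes the cell cycle inhibitor p57 and is maternally expressed, was at 2.87, 4.45 and 4.73 FPKM in Con, 4.60, 3.30 and 3.54 in HMD and 2.68, 2.91 and 2.06 in Bet+HMD. Bet+HMD lay below HMD but overlapped Con, where replicate 1 was low. It fell against HMD (log2 fold change -0.44, SE 0.14, adjusted P = 0.0361) and did not pass against Con (log2 fold change -0.49, SE 0.18, adjusted P = 0.0643). The call rested on few reads, 73 to 165 per library of the later table, and did not hold in 8 of 16 alternatives. Igf2, the growth factor that the choroid plexus and meninges make in the adult brain, had 64, 115 and 52 reads in Con, 125, 31 and 86 in HMD and 28, 68 and 52 in Bet+HMD, with overlap between groups.

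**Figure D3:**
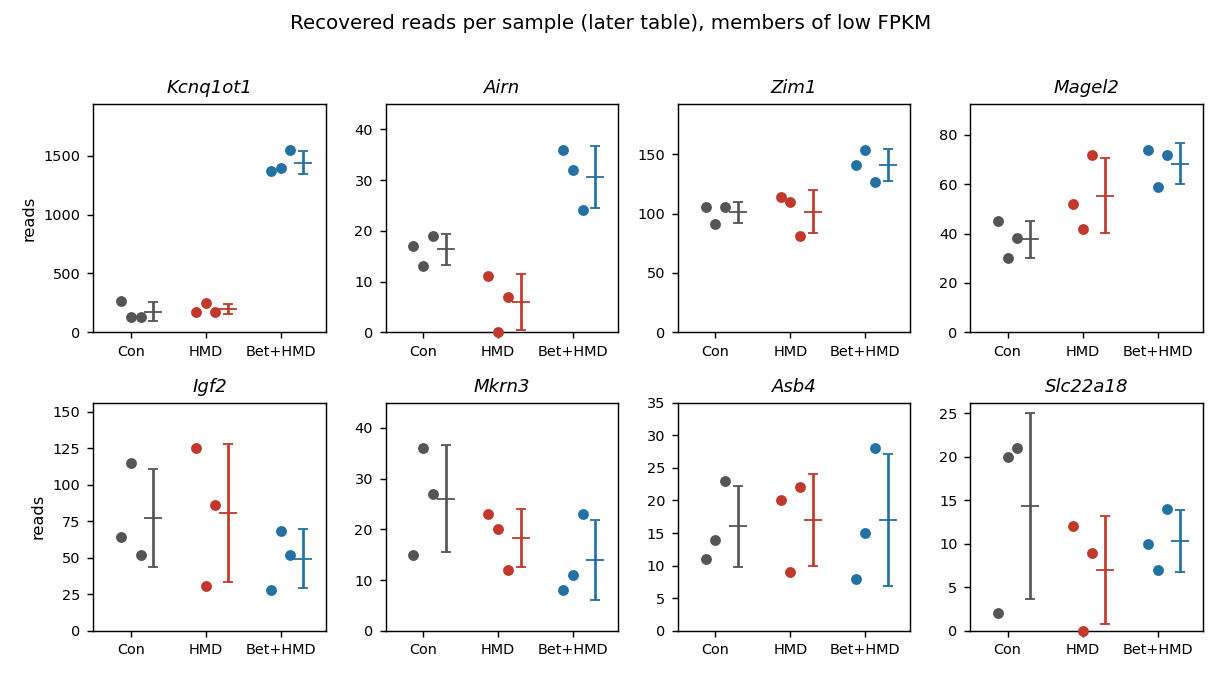
Reads recovered per sample in the later table (points, vertical axes starting at 0) for 8 members below 1 FPKM, with the mean and SD of each group of 3 beside its points. Kcnq1ot1 lies at 1371 to 1553 reads in Bet+HMD and at 130 to 265 reads in the other samples, Airn is also higher in Bet+HMD, and the other panels overlap except Zim1 and, against Con, Magel2.

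Airn and Igf2r form a similar pair on chromosome 17, in which the paternal non-coding Airn, read across the start of Igf2r, can silence it on that copy, though not in every tissue. Airn had 17, 13 and 19 reads in Con, 11, 0 and 7 in HMD and 36, 32 and 24 in Bet+HMD, so the Bet+HMD libraries lay above all others and HMD replicate 2 had none. With genes kept at a mean of 10 reads it passed against HMD (log2 fold change 0.44, SE 0.092, adjusted P = 0.00595) and narrowly against Con (log2 fold change 0.23, SE 0.078, adjusted P = 0.0495). On the reads themselves it passed against HMD and not against Con (2.97, SE 0.83, adjusted P = 0.0112, and 0.83, SE 0.36, adjusted P = 0.0913). The mean of Airn in HMD was below 10 reads, so it entered both tests against HMD only through Bet+HMD, where it was high. These passes therefore give no support beyond the reads themselves. Igf2r, the receptor that clears IGF2 from the cell surface, was close in all groups, at 4.44, 4.17 and 4.22 FPKM in Con, 4.25, 4.39 and 4.33 in HMD and 4.37, 4.39 and 4.79 in Bet+HMD. Its difference from HMD was log2 fold change 0.051, SE 0.074, adjusted P = 0.60.

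On chromosome 6, Copg2 and Peg10 fell. Copg2, a maternally expressed subunit of the coatomer that coats vesicles of the Golgi, was at 21.6, 25.1 and 20.9 FPKM in Con, 23.2, 26.8 and 19.5 in HMD and 12.9, 13.4 and 13.7 in Bet+HMD. The Bet+HMD libraries lay below all others, and Copg2 fell (log2 fold change -0.75, SE 0.11, adjusted P = 0.00177 and, against Con, log2 fold change -0.71, SE 0.093, adjusted P = 0.00167). Mest, a paternally expressed hydrolase gene whose end overlaps that of Copg2, was at 8.42, 9.82 and 6.92, 8.37, 8.22 and 6.83 and 8.80, 7.85 and 9.35 FPKM in Con, HMD and Bet+HMD, and did not pass (log2 fold change 0.14, SE 0.10, adjusted P = 0.30). The overlap holds 17.8% of the exon bases of Copg2 and 23.1% of those of Mest. Peg10, a retrotransposon-derived gene needed in the placenta, was at 5.66, 4.92 and 4.56, 6.63, 5.46 and 5.04 and 3.80, 3.80 and 3.89 FPKM in the 3 groups. It fell in Bet+HMD (log2 fold change -0.47, SE 0.10, adjusted P = 0.00791, and log2 fold change -0.32, SE 0.092, adjusted P = 0.0318 against Con). The call against Con was lost in 7 of 16 alternatives, namely with no filter, under TPM (log2 fold change -0.16), under the replicate block, and without Con replicate 1 or any Bet+HMD replicate (adjusted P up to 0.11 without single samples). Sgce, the sarcoglycan gene of myoclonus dystonia that starts 99 bases away on the other strand, was at 2.48, 2.05 and 2.50, 2.06, 1.44 and 2.05 and 1.96, 1.87 and 1.60 FPKM and did not pass (log2 fold change -0.013, SE 0.13, adjusted P = 0.94, and log2 fold change -0.25, SE 0.11, adjusted P = 0.11 against Con, where the groups did not overlap).

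On chromosome 15, the paternal non-coding RNA Peg13 lies in an intron of Trappc9, and Trappc9 and the potassium channel gene Kcnk9 beside it are expressed mainly from the maternal copy in the brain. Trappc9 was at 9.45, 8.90 and 7.53 FPKM in Con, 10.6, 9.70 and 10.4 in HMD and 6.46, 7.29 and 6.13 in Bet+HMD, the Bet+HMD libraries being lowest. It fell against HMD (log2 fold change -0.56, SE 0.083, adjusted P = 0.00165) and against Con (log2 fold change -0.33, SE 0.11, adjusted P = 0.0460), the latter call being lost in 11 of 17 alternatives. Peg13 was at 54.6, 53.5 and 48.9, 62.7, 53.7 and 60.5 and 52.5, 53.3 and 52.7 FPKM. It lay just below HMD without overlap but did not pass (log2 fold change -0.15, SE 0.076, adjusted P = 0.14). Kcnk9, from the list of other imprinted genes, was at 6.16, 5.01 and 4.52, 6.05, 6.72 and 5.25 and 13.8, 13.7 and 13.4 FPKM and rose (log2 fold change 1.07, SE 0.091, adjusted P = 0.000189).

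Smaller differences were seen in members that stand alone or in other genes' introns. Nap1l5 was at 157, 176 and 151, 208, 165 and 199 and 161, 148 and 148 FPKM in Con, HMD and Bet+HMD, and fell against HMD (log2 fold change -0.32, SE 0.10, adjusted P = 0.0349) but not against Con (log2 fold change -0.079, SE 0.095, adjusted P = 0.54). Impact was at 79.6, 94.9 and 65.0, 96.8, 98.5 and 84.2 and 75.1, 71.6 and 79.7 FPKM and showed the same contrast (log2 fold change -0.30, SE 0.085, adjusted P = 0.0237, and log2 fold change -0.065, SE 0.14, adjusted P = 0.75 against Con). The calls against HMD were lost in 8 of 17 alternatives for Nap1l5 and 7 of 17 for Impact. Under quantile normalization the sign of Nap1l5 and of Impact against HMD turned (log2 fold change 0.092 and 0.089), so no direction is given for them beyond the main scaling. Inpp5f, a phosphoinositide phosphatase gene, was at 16.3, 16.8 and 15.6, 17.1, 17.6 and 15.3 and 13.5, 14.0 and 13.5 FPKM, with the Bet+HMD libraries below all others (log2 fold change -0.27, SE 0.076, adjusted P = 0.0235, and log2 fold change -0.23, SE 0.074, adjusted P = 0.0446 against Con). Its call was lost in 7 of 17 alternatives against HMD and 10 of 17 against Con, each one without a Bet+HMD replicate among them, and its log2 fold change under TPM was -0.085 and -0.025. Grb10, paternally expressed in neurons and maternally elsewhere, was at 4.48, 4.98 and 3.54, 6.45, 5.03 and 5.24 and 5.76, 6.18 and 5.72 FPKM. It rose against Con (log2 fold change 0.38, SE 0.12, adjusted P = 0.0391) and not against HMD (log2 fold change 0.072, SE 0.10, adjusted P = 0.58), and the call against Con was lost in 7 of 17 alternatives, those without Con replicate 1 and without Bet+HMD replicate 1, 2 or 3 among them.

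The remaining members did not pass the test. Rasgrf1 was at 49.3, 54.8 and 56.0 FPKM on average in Con, HMD and Bet+HMD, and Plagl1, a zinc finger gene of growth control, at 5.98, 6.43 and 5.34. Zrsr1, a splicing factor retrogene in an intron of Commd1, stood at 11.2, 10.9 and 11.1 FPKM. Commd1, of copper handling, stood at 1.21, 1.17 and 0.863 FPKM, with Bet+HMD below HMD in every library (adjusted P = 0.19). Gnas, which encodes the stimulatory G protein subunit and several other products from imprinted promoters, spread from 3.15 to 8.25 FPKM over the 9 libraries, and 22.0% of its exon bases are shared with models on the other strand.

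Split by the parental copy classed as expressed, 1 of the 15 paternal members tested rose and 7 fell against HMD, with a median log2 fold change of -0.19. Of the 7 maternal members tested, 0 rose and 4 fell, with a median of -0.44. Over all genes tested, 22.8% were higher and 25.5% lower, with a median of -0.03, and the 2 sets of members were not tested against each other. Neither Grb10 nor Gnas passed. Among members that overlap no other gene model, 6 were tested, of which Peg3 rose and Peg10 and Impact fell. Across the 24 members, the log2 fold change against HMD was related to the length of the gene model (Spearman's rho 0.63, as a description), where over all genes tested rho was 0.12. The longest model that fell was Inpp5f (8323 bases), and the members share libraries and depth. Against Con, rho was 0.68 over the members and 0.20 over all genes.

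Beside the members, 22 other imprinted genes outside the Dlk1-Dio3 locus were listed, of which 14 were tested. Against HMD, 3 rose and 2 fell, and against Con 2 rose and 3 fell, where 22.8% and 25.5% of all genes were higher and lower against HMD, and 19.4% and 20.4% against Con. Besides Kcnk9 and Snhg14, Ddc, which makes dopamine and serotonin (log2 fold change -0.59, SE 0.12, adjusted P = 0.00566), and Cd81, a membrane tetraspanin gene (log2 fold change -0.36, SE 0.10, adjusted P = 0.0186), had the smallest P among those that fell. In HMD against Con no gene of this list passed. At the Dlk1-Dio3 locus, 3 of the 5 genes tested rose and 1 fell against HMD, led by the non-coding Meg3 at 27.2, 12.2 and 23.5 FPKM in Con, 16.6, 23.4 and 21.8 in HMD and 328, 324 and 341 in Bet+HMD. Mirg, among those that rose, averaged 0.559 FPKM in Con, 0.455 in HMD and 3.48 in Bet+HMD. It passed the filter of 1 FPKM only through Bet+HMD, where it was high.

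Factors that keep or read parental imprints were followed as a list of 22 genes, of which 18 were tested against HMD and against Con. In Bet+HMD against HMD 9 rose and 1 fell (22.8% and 25.5% of all genes), with a median log2 fold change of 0.34 against -0.03 over all genes. Zfp445, a zinc finger protein that binds methylated imprinting control regions, was at 17.4, 15.8 and 19.3 FPKM in Con, 14.3, 19.3 and 15.6 in HMD and 33.2, 33.4 and 34.3 in Bet+HMD. It rose in every Bet+HMD library above all others (log2 fold change 1.00, SE 0.11, adjusted P = 0.000454). Tet2, an enzyme that oxidizes methylated cytosine, was at 2.31, 1.97 and 1.71, 1.69, 2.13 and 2.11 and 4.48, 4.75 and 5.44 FPKM and rose (log2 fold change 0.98, SE 0.11, adjusted P = 0.000427). Trim28, the corepressor that such zinc finger proteins recruit, was at 33.5, 32.1 and 26.8, 29.6, 31.8 and 35.5 and 20.7, 20.4 and 18.2 FPKM and fell (log2 fold change -0.68, SE 0.091, adjusted P = 0.00102). Mbd3 had the next smallest P among negative values (log2 fold change -0.35, SE 0.16, adjusted P = 0.0977). Zfp57, which binds the same control regions, Setdb1, which methylates histone H3 there, and the DNA methyltransferases Dnmt1 and Dnmt3a also rose (log2 fold change 0.99, 0.77, 0.58 and 0.51), and were named after their values were seen. Zfp57 was below the filter of 1 FPKM in HMD against Con, where 17 of the list were tested. It was tested only beside Bet+HMD, where it was high, so its place among the rises depends on that group. Against Con 8 rose and 1 fell (19.4% and 20.4% of all genes), and no gene of the list passed in HMD against Con.

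**Figure D4:**
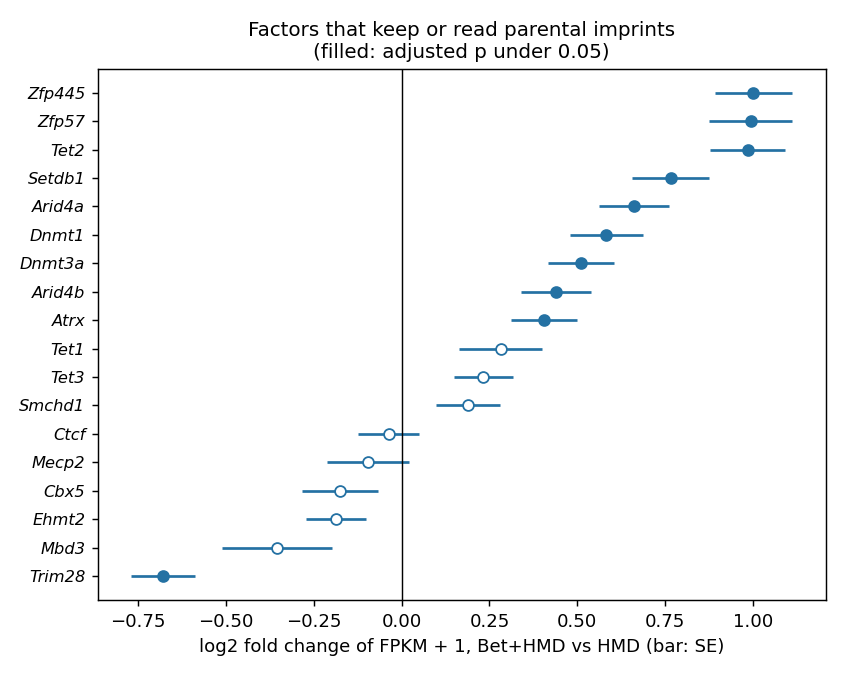
Log2 fold change of FPKM + 1 in Bet+HMD vs HMD (horizontal axis, bars are standard errors) of the 18 tested genes that keep or read parental imprints, in order of the change. Filled points have an adjusted P under 0.05, and Trim28 is the filled point left of 0 while 9 filled points lie on the right.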

How the data were processed

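RNA of the hippocampus was sequenced in 9 samples (3 groups of 3), grouped by their titles. The study's methods name paired-end sequencing, and both a kit that depletes ribosomal RNA and a stranded mRNA library kit. How the RNA was selected is therefore not clear, and those methods do not describe the Bet+HMD group. The submitters' processing notes name the genome mm10, HISAT2 2.1.0 and featureCounts 1.5.0-p3. The strand setting of the counting is not stated, and overlapping and antisense genes are therefore uncertain. The authors deposited FPKM values, and other columns of the deposited tables, used as given, hold gene length and position. Columns that start with COL were read as Con by exclusion, since the remaining prefixes are HMD and Bet.

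FPKM multiplied by gene length and library size gave whole reads for 100% of values (tolerance 0.001). At 16031464 to 18566712 reads per library, 3 reads were taken as the floor. limma 3.58.1 (R 4.3.3), with an intensity trend, was run on log2(FPKM + 1) for 2 groups at a time, over genes with a mean of at least 1 FPKM, and adjusted over all genes tested (Benjamini-Hochberg, two-sided, threshold 0.05). It replaces the count-based tool of the study's methods because the deposited unit is FPKM, and the recovered reads were fitted by voom as an alternative. Fold changes on this scale understate those of low genes, and changes with the 10-read filter are on it too. SE is the moderated standard error, and voom values are on the log2 scale of reads over library size. The script was tested on simulated data. Nothing says whether samples of a group came from separate cages, so P-values measure the spread between these samples. Coordinates are those of the tables, and 35 of the 36 members had the same position in GENCODE M21 on GRCm38.

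All 36 members are named, with values in every sample for those past the threshold, and from each gene list up to 4 genes, namely the 2 of smallest P among rises and among falls. A further 4 factors of imprints were named after their values were seen. The members and lists were chosen with earlier results of these data known. Alternatives were the pseudocount (0.1), filters (none, 5 FPKM, 10 reads), TPM, quantile normalization, median centring, voom on reads, all 3 groups in 1 fit, a replicate block, the later table, and leaving out each sample. voom with the 10-read filter was added after seeing the data.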

Additional observations from a re-analysis of the deposited data

How the results depend on the processing

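In HMD against Con, 0 members passed under the main settings and under all 18 alternatives. Against HMD, the number of members past the threshold stayed within 1.5 times of 12 (8 to 14). The number that rose was 1, and became 3 with no filter, 3 with the 10-read filter, 3 with voom and that filter, 3 under TPM and 2 under quantile normalization. Over all genes, the numbers that rose were 4064 of 30935, 3974 of 16846, 4115 of 16846, 4496 of 13672 and 3041 of 13672, in that order. With the 10-read filter, 31 members were tested. Airn, among the rises with the 10-read filter, entered there only through Bet+HMD. The number that fell was 11, became 6 under TPM, and ran from 7 to 12 without single samples. Against Con, 10 passed, and 6 under the replicate block (1 rose, 5 fell) and 6 to 11 without single samples. Of these, 2 rose as reported, 1 to 2 without single samples, 5 with the 10-read filter, 4 with voom and that filter, 4 under TPM and 4 under quantile normalization, and 8 fell as reported, 5 under TPM and 5 to 9 without single samples. Over all genes, 3469 of 16868 rose with the 10-read filter and 3554 of 16868 with voom and that filter. Under TPM 3980 of 13643 genes rose, and under quantile normalization 2620 of 13643. Quantile normalization reversed Impact (0.089) and Nap1l5 (0.092) against HMD and Nap1l5 against Con (0.36, past the threshold). The causes of these changes were not tested.

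Replicates that share a number come from different mice. The correlation of their deviations from the group means ran from -0.18 to 0.017 in the comparisons with Bet+HMD. In HMD against Con it was -0.055, 0.35 and 0.32 for replicates 1, 2 and 3. There, 1034 of 12989 genes had an unadjusted P under 0.05 (limma) with the number as a block, and 592 without it. Whether Con and HMD samples of a number share something was not tested, and the main test does not pair them. With the number as a replicate block, 10 members passed against HMD and 0 in HMD against Con.

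With 3 samples a group, differences of the size seen for most members between HMD and Con could not be detected, and members of few reads are the least certain.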
